A study of Homo sapiens with 4 samples.

Results

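Integrins are the main receptors by which animal cells hold the extracellular matrix, and each receptor is a pair of an α and a β subunit, made by separate genes. The integrin genes described here were 9 of those known in epithelial and mesenchymal cells: ITGA2, which pairs with ITGB1 to bind collagen, ITGA3 and ITGA6, the α subunits of laminin receptors, ITGA5, the α subunit of the fibronectin receptor, ITGAV, which pairs with several β subunits to bind ligands with an RGD motif, ITGB1, the common partner of most α subunits, ITGB3 and ITGB5, which pair with ITGAV, and ITGB4, which pairs with ITGA6 and anchors hemidesmosomes. Their peaks were chosen by the NCBI gene ID written beside each peak, with each position counted once. There were 103 such peaks of 72614 in all, 22 from the HNRNPC list of 9107 and 81 from the PABPC4 list of 63507.

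Binding of RNA to both proteins was mapped in MDA-MB-231, an established human breast cancer cell line, with 2 samples per protein and cells exposed to ultraviolet light at 400 mJ per square centimetre and 254 nm. HNRNPC was immunoprecipitated, by the labels, in irCLIP, in which the protein is cross-linked to the RNA it touches and the attached fragments are sequenced as tags. PABPC4 was immunoprecipitated in PAPERCLIP, a form of CLIP meant to mark mRNA 3′ ends through the poly(A) tail, and its libraries were made with a small-RNA kit whose own tailing step was left out. Both samples of a protein carried no other treatment and their tags were pooled into 1 peak list, so a replicate error could not be computed for any value and no difference was tested.

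HNRNPC is a mostly nuclear protein that binds runs of U in pre-mRNA, including those of Alu repeats inserted in antisense. PABPC4 is a poly(A)-binding protein that moves between nucleus and cytoplasm. Cleavage of a pre-mRNA at its 3′ end follows a poly(A) signal, most often AAUAAA or AUUAAA, and a gene with several such signals can make 3′ UTRs of different length.

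The sequences below come from PABPC4 3′ UTR peaks of the integrin genes that had a poly(A) signal. Each is a stretch of 30 nt in the 3′ UTR or running a few nt past its end (hg38, read 5′ to 3′ in the sense of the RNA, with T for U) with the poly(A) signal in capitals, and the tag number is the height of the peak, that is the pooled unique tags at its summit.
ITGA2, 351 tags, chr5:53094523-53094552, plus strand: tttgATTAAAtgtgttttgcctctttccac
ITGA2, 52 tags, chr5:53094742-53094771, plus strand: tgaaAATAAAgccattttctttgggctttt
ITGA3, 318 tags, chr17:50090456-50090485, plus strand: gaccAATAAAcagctcccagtttgtatgca
ITGA6, 106 tags, chr2:172506169-172506198, plus strand: gtgaAATAAAttttttataaaagtgttcat
ITGA5, 175 tags, chr12:54395275-54395304, minus strand: gtgcAATAAAtctgacccagtgcccccact
ITGAV, 136 tags, chr2:186680874-186680903, plus strand: gtacAATAAAcataagcatatggtaccact
ITGB1, 286 tags, chr10:32900396-32900425, minus strand: atttATTAAAtatgcctaaaatacttaaat
ITGB1, 12 tags, chr10:32900315-32900344, minus strand: atagATTAAAgaagttgaggaaaagcattt
ITGB4, 238 tags, chr17:75757792-75757821, plus strand: acttAATAAAtggttttgctactgctaggc
ITGB5, 323 tags, chr3:124762955-124762984, minus strand: aaagATTAAAaccaaaagaatttgtgtttg
ITGB5, 28 tags, chr3:124761945-124761974, minus strand: gaaaAATAAAtgtaattttggaagaaactt
There were 11 such sequences from 8 genes, 7 with AAUAAA and 4 with AUUAAA. The signal began 17 to 36 nt before the end of the peak in all of them. A further peak of ITGB5, with 29 tags, also had AAUAAA. The 351-tag peak of ITGA2 and the 12-tag peak of ITGB1 were also followed by a stretch rich in A within 50 nt downstream.

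Other tall PABPC4 peaks had no poly(A) signal and were followed by genomic A. They are shown because reverse transcription that is primed on poly(A) can also start at genomic A within a transcript, and the part of such priming in these peaks was not tested. The capitals mark the first run of at least 6 A, or the 10 nt richest in A, downstream of the peak.
ITGA2, 484 tags, chr5:53092631-53092660, plus strand: AAAAAAAAAAgactggagaaactagtcatt
ITGB1, 515 tags, chr10:32929899-32929928, minus strand: gAAAAATAAAAatgtaaccaaccgtagcaa
ITGA3, 343 tags, chr17:50083725-50083754, plus strand: AAAAAAAAAAAAAAAgaaactaaatgggca
The first lies in the 3′ UTR of ITGA2, the second in coding exon 4 of ITGB1 and the third in intron 23 of ITGA3. The stretch began 0 nt past the peak in ITGA2 and ITGA3 and 1 nt past it in ITGB1.

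Of the 22 HNRNPC peaks, 17 had 1 or both of 2 kinds of sequence (77.3%), beside 68.2% of all other HNRNPC peaks. In the first, a run of at least 5 U lay in the peak or in the 50 nt before it, and 4 examples are given with the run in capitals and 15 nt on either side.
ITGB1, 11 tags, chr10:32903337-32903388, minus strand: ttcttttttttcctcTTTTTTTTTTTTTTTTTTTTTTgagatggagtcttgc
ITGB1, 12 tags, chr10:32940329-32940375, minus strand: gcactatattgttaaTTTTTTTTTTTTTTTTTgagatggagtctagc
ITGB1, 16 tags, chr10:32920803-32920847, minus strand: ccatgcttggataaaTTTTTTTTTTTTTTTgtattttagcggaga
ITGA6, 16 tags, chr2:172483440-172483474, plus strand: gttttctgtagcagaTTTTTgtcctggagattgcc
In the second, the peak ended with GUGUCA, within its last 15 nt or the 20 nt downstream. All 6 integrin peaks of this kind are given, with the hexamer in capitals.
ITGA3, 94 tags, chr17:50063272-50063301, plus strand: tgctctggggccacattgtccaaaGTGTCA
ITGB1, 19 tags, chr10:32912924-32912953, minus strand: cagaggggcaccgggctgtatgagGTGTCA
ITGA5, 10 tags, chr12:54413956-54413985, minus strand: ctacttcctcaggccaccccaggaGTGTCA
ITGB5, 10 tags, chr3:124779081-124779110, minus strand: agctcccgtgtcctgatgccccatGTGTCA
ITGB5, 9 tags, chr3:124881980-124882009, minus strand: gggagaaagagattctgttggaatGTGTCA
ITGA2, 7 tags, chr5:53004506-53004535, plus strand: gagtgcctattgtatacccacagaGTGTCA
The tallest HNRNPC peak in an integrin gene, in intron 1 of ITGA3, was of the second kind, and the longest U run, 22 nt in intron 15 of ITGB1, was of the first.

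To see where each protein bound in the integrin genes, peak centres were placed on the MANE Select transcript, the reference transcript of each gene. All 22 HNRNPC peaks lay in introns. PABPC4 peaks lay in introns (51 of 81), 3′ UTRs (23), coding exons (6) and, for 1 peak, past the end of the gene. All GENCODE transcripts were then used, with UTRs and coding exons from protein-coding transcripts only. On these, 20 HNRNPC peaks were intronic, 1 fell in a 5′ UTR exon and 1 in a non-coding exon. Of the PABPC4 peaks, 47 were intronic and 5 fell in non-coding exons, and the counts for 3′ UTRs and coding exons did not change. Shares set beside all other peaks of a list use these transcripts. First-intron shares and the numbers of introns and exons use MANE Select. The share of PABPC4 peaks in 3′ UTRs was 28.4% (95% Wilson interval 19.7 to 39.0%), beside 29.8% of all other PABPC4 peaks. The share of HNRNPC peaks in introns was 90.9% (72.2 to 97.5%), beside 85.4% of all other HNRNPC peaks. Wilson intervals cover counting error only, and peaks of 1 gene are not independent.

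**Figure D1:**
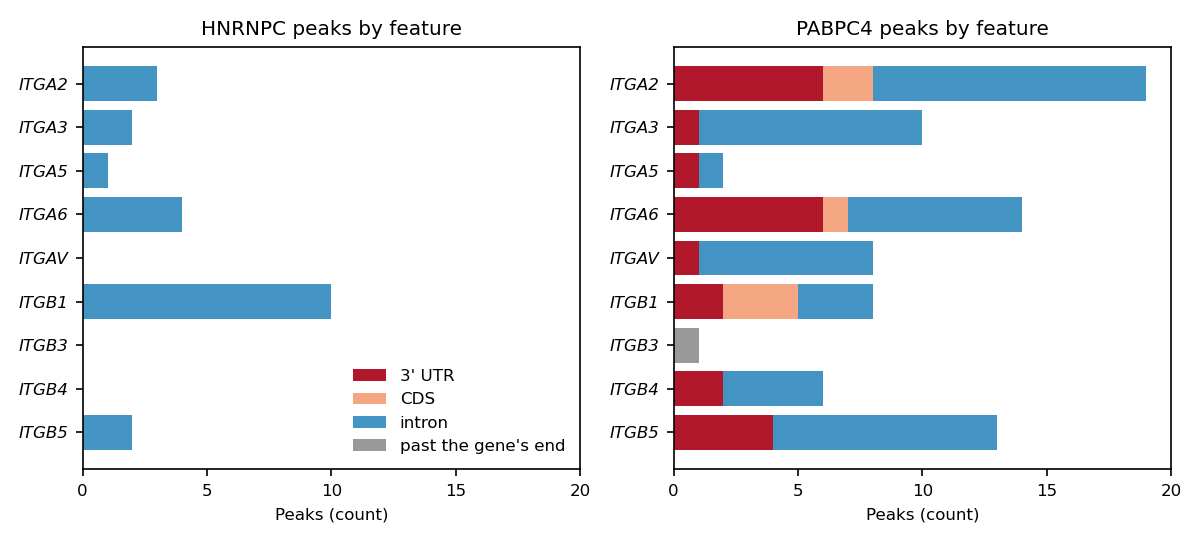
Number of HNRNPC peaks (left) and PABPC4 peaks (right) in each of the 9 integrin genes, coloured by the feature of the MANE Select transcript at the peak centre. HNRNPC peaks were all intronic and most numerous in ITGB1 (10), while PABPC4 peaks were most numerous in ITGA2 (19) and 8 genes had at least 1 in the 3′ UTR.

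HNRNPC bound 6 of the 9 genes, beside 19% of 20056 protein-coding genes with 1 or more HNRNPC peaks. ITGB1 had 10 peaks, ITGA6 had 4, ITGA2 had 3, ITGA3 and ITGB5 had 2 each, and ITGA5 had 1. ITGAV, ITGB3 and ITGB4 had none, so neither gene of the ITGAV and ITGB3 receptor had a listed peak. RNA levels were not analysed here, so a gene without a listed peak cannot be told apart from one with little RNA. ITGB1 was the only one of the 9 with 10 or more HNRNPC peaks, a number that 0.514% of protein-coding genes reached, and it ranked 93 of the 3814 protein-coding genes with a peak. Of these 10 peaks, 7 had an authors' p-value of at most 0.001 and 6 were at or above the median height of the list, so under either limit ITGB1 had fewer than 10, and the 2 weakest had a p-value of 0.0574. Per length of the gene, HNRNPC peaks numbered 1.73 per 10 kb in ITGB1, 0.582 in ITGA3, 0.506 in ITGA6, 0.417 in ITGA5, 0.285 in ITGA2 and 0.143 in ITGB5. The median of the 3814 genes was 0.261 per 10 kb, so ITGB5 alone of the 6 lay below it.

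No HNRNPC peak lay in the 3′ UTR of an integrin gene, and 0 of 22 allows a share of up to 13.6%. Of all other HNRNPC peaks 4.99% were in 3′ UTRs, and 1.98% of protein-coding genes had 1 or more. At this number of peaks a share like that of the other genes could not be told from 0.

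**Figure D2:**
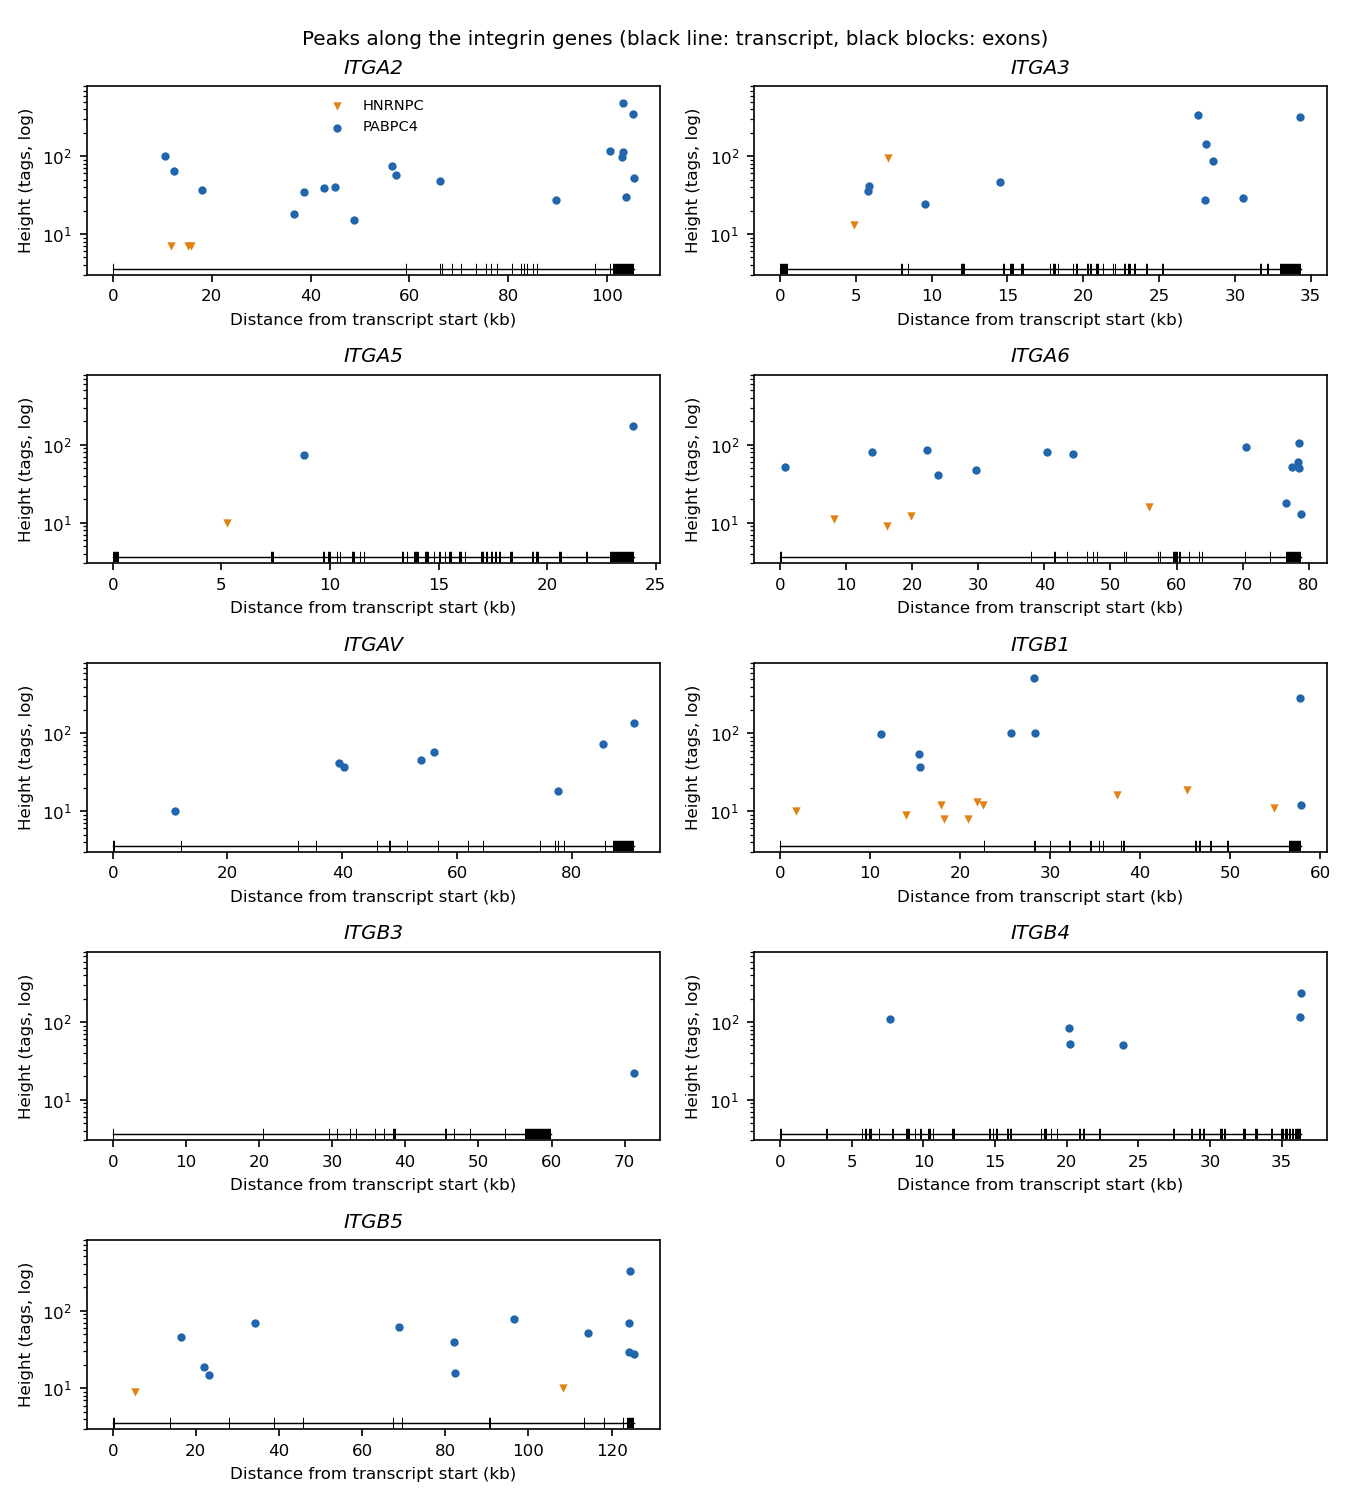
Height of each peak in tags (log axis) against its distance from the start of the MANE Select transcript in kb, with 1 panel per gene, HNRNPC peaks as orange triangles and PABPC4 peaks as blue circles. HNRNPC peaks gather in the first intron of ITGB1, ITGA6 and ITGA2. The tallest PABPC4 peak stands in the 3′ UTR in ITGA2, ITGA5, ITGA6, ITGAV, ITGB4 and ITGB5. It stands in a coding exon in ITGB1 and in an intron in ITGA3. The only peak listed for ITGB3 stands past the end of that gene.

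Most HNRNPC peaks lay in the first intron. On the MANE Select transcript 17 of 22 were in intron 1 (77.3%, interval 56.6 to 89.9%). First introns made up 31.7% of the intron length of the 6 bound genes. Among all other HNRNPC-bound genes 38.2% of intron peaks lay in intron 1, which held 24.6% of their intron length. In the integrin genes this corresponded to 1.36 peaks per 10 kb in first introns (125.2 kb) and 0.185 per 10 kb in all later introns (269.8 kb), beside 0.311 and 0.164 per 10 kb in the other bound genes. By gene, 7 of 10 in ITGB1, 3 of 4 in ITGA6, all 3 in ITGA2, both in ITGA3, the 1 of ITGA5 and 1 of 2 in ITGB5 were in intron 1. Without ITGB1 the share was 10 of 12 (83.3%). With the authors' p-value at most 0.001 it was 9 of 14 (64.3%), a limit that was not applied to the first introns of the other genes. Of the PABPC4 peaks in MANE Select introns, 15 of 51 were in intron 1 (29.4%), which held 28.5% of the intron length of the 9 genes.

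The tallest HNRNPC peak by tags, not scaled to RNA level, was in the α subunit gene ITGA3. This peak, in intron 1 (chr17:50063139-50063306), had 94 tags where 1.14 were expected by chance, and it ranked 66 by height among the 3814 genes. A second peak in the same intron (chr17:50060917-50061029) had 13 tags. The authors' p-value was 1e-100 for the first, the lower limit of the list, and 0.0328 for the second. All other integrin HNRNPC peaks were 7 to 19 tags high, so the 94-tag peak stood alone among them, and the median of the whole list was 11 tags.

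ITGA6 had peaks of 16, 12, 11 and 9 tags. The tallest, in intron 11 (chr2:172483438-172483531), held a run of 5 U and was 42.6% U, the highest U content among the 22. The other 3 were in intron 1 and each lay at an antisense Alu repeat. ITGA2, the collagen receptor subunit, had 3 peaks of 7 tags each in intron 1 (chr5:53001101-53001172, chr5:53004451-53004537 and chr5:53005137-53005216). Each of these had an authors' p-value of 0.02, and they were the lowest of the 22 peaks. ITGA5 had 1 peak of 10 tags in intron 1 (chr12:54413951-54414024, p-value 1.49e-09).

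Among β subunits, the 10 peaks of ITGB1 were 8 to 19 tags high, and the tallest were in intron 11 (19 tags, chr10:32912927-32912997), intron 9 (16 tags, chr10:32920683-32920792) and intron 1 (13 tags, chr10:32936191-32936399). The number of peaks, not their height, set ITGB1 apart from the other 8 genes. The last of these 3 lies in an intron of the MANE Select transcript and in a 5′ UTR exon of another protein-coding transcript. ITGB5 had peaks of 10 tags in intron 10 (chr3:124779081-124779166) and 9 tags in intron 1 (chr3:124881979-124882053).

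**Figure D3:**
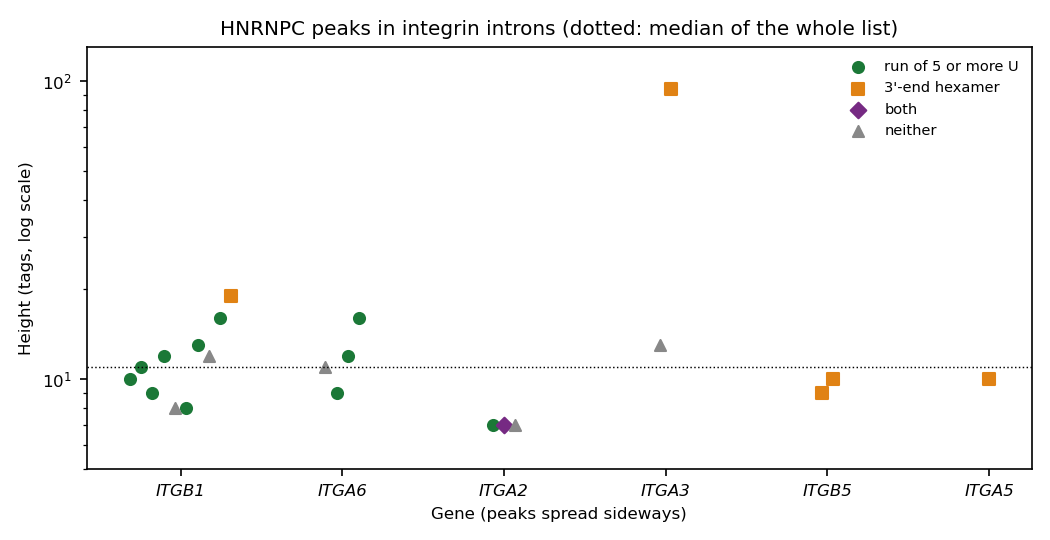
Height in tags (log axis) of the 22 HNRNPC peaks by gene, with the marker giving the sequence of the peak: a run of at least 5 U in the peak or the 50 nt upstream, GUGUCA at the 3′ end (3′-end hexamer), both, or neither. U runs make up 7 of 10 peaks in ITGB1 and 3 of 4 in ITGA6, and the 94-tag peak of ITGA3 has the hexamer.

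UUUUU was found in 8 of the 22 peaks (36.4%, interval 19.7 to 57.1%), beside 13.2% of all other HNRNPC peaks. Counting the 50 nt upstream as well, 12 of 22 had it (54.5%, 34.7 to 73.1%), beside 39.7% of the others, and upstream alone the shares were 31.8% and 30.5%. Of these 12 peaks 7 were in ITGB1, 3 in ITGA6 and 2 in ITGA2, and 0 were in ITGA3, ITGA5 or ITGB5. The longest U run began 5 to 40 nt before the start of the peak in 5 of the 7 ITGB1 peaks and inside the peak in the other 2. The U run of 22 nt in intron 15 of ITGB1, at a peak of 11 tags, was followed by gagatggagtcttgc, and the 17-nt run of intron 1 by gagatggagtctagc. Both matched an Alu repeat in antisense.

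An antisense Alu match, found by comparing the peak and 100 nt on each side with the 7SL RNA gene RN7SL1 from which Alu repeats derive, was present at 11 of 22 peaks (50%, interval 30.7 to 69.3%), beside 32.8% of all other HNRNPC peaks. There were 6 in ITGB1, 3 in ITGA6 and 1 each in ITGA2 and ITGB5. In ITGB1 all 6 of these peaks had UUUUU in or before them. No integrin HNRNPC peak matched Alu in sense (0 of 22, which allows up to 13.6%).

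GUGUCA at the 3′ end was found at 6 of 22 peaks (27.3%, interval 13.2 to 48.2%), beside 38.9% of all other HNRNPC peaks. The share of the hexamer was thus below that of the list, and that of UUUUU inside the peak was above it. The interval for the hexamer held the value of the list, as did that for UUUUU with the 50 nt upstream counted. Of the 8 peaks with UUUUU inside, 5 were in ITGB1, and without ITGB1 the count was 3 of 12. The hexamer peaks were 1 peak each of ITGA2, ITGA3, ITGA5 and ITGB1 and both peaks of ITGB5. One peak, in ITGA2, had both the hexamer and UUUUU, and 5 peaks had neither in the peak or the 50 nt upstream. The share with either was 77.3% (interval 56.6 to 89.9%), beside 68.2% of all other HNRNPC peaks, a value inside the interval. GUGUCA is not a U run, and what places it at the ends of so many HNRNPC peaks was not tested.

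PABPC4 peaks were listed for all 9 genes, beside 59.2% of protein-coding genes with 1 or more. Peak heights ran from 10 to 515 tags with a median of 52, where the median of the whole list was 38. ITGA2 had 19 peaks, ITGA6 had 14, ITGB5 had 13, ITGA3 had 10, ITGAV and ITGB1 had 8 each, ITGB4 had 6, ITGA5 had 2 and ITGB3 had 1. Per 10 kb of gene the order was different, with ITGA3 first (2.91 peaks), then ITGA2 (1.80), ITGA6 (1.77), ITGB4 (1.65), ITGB1 (1.38), ITGB5 (0.932), ITGAV (0.881), ITGA5 (0.833) and ITGB3 (0.167). The median of the 11865 protein-coding genes with a peak was 1.03 per 10 kb.

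In the 3′ UTR, 8 of the 9 genes had 1 or more PABPC4 peaks, beside 48.8% of protein-coding genes. The same 8 genes had a 3′ UTR peak with a poly(A) signal in its last 40 nt, beside 36.7%, and a 3′ UTR peak without an A-rich stretch downstream, beside 42.4%. The exception in each case was ITGB3. The tallest 3′ UTR peak was 484 tags in ITGA2, 323 in ITGB5, 318 in ITGA3, 286 in ITGB1, 238 in ITGB4, 175 in ITGA5, 136 in ITGAV and 106 in ITGA6. The median of the tallest peak over the 9778 protein-coding genes with one was 73 tags, with quartiles of 34 and 147, so all 8 lay above the median and 6 above the upper quartile. The 484-tag peak of ITGA2 had no poly(A) signal and was followed by an A-rich stretch. The tallest ITGA2 3′ UTR peak without such a stretch had 98 tags, below the upper quartile. Height was not scaled to RNA level, so these heights do not compare binding per molecule.

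**Figure D4:**
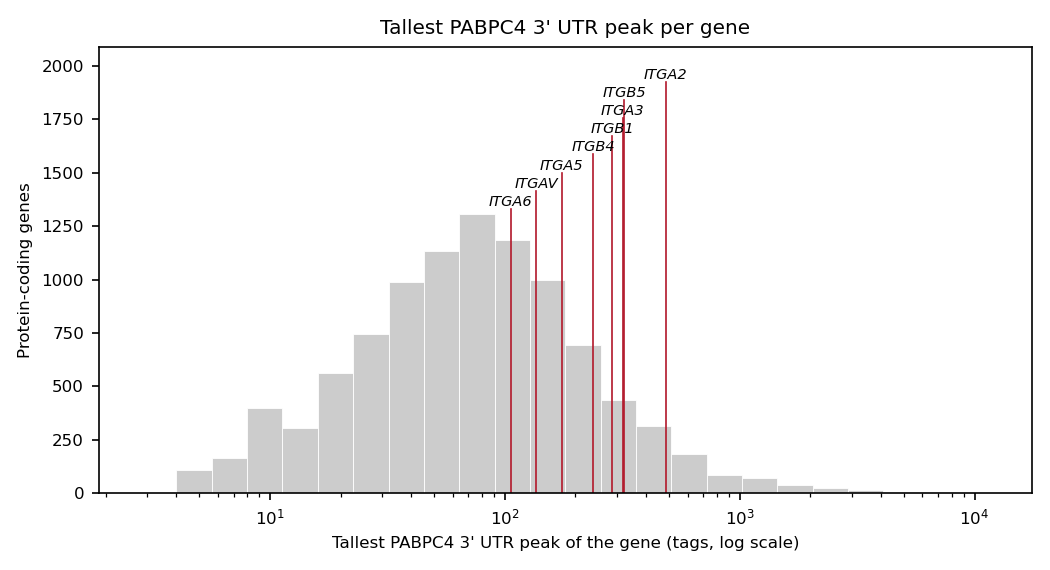
Distribution over 9778 protein-coding genes of the height of the tallest PABPC4 3′ UTR peak of each gene (log axis, grey bars), with the 8 integrin genes that have one as red lines. The integrin values run from 106 tags in ITGA6 to 484 tags in ITGA2, all to the right of the median of 73 tags. The ITGA2 peak has no poly(A) signal and is followed by an A-rich stretch.

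Of the 23 integrin 3′ UTR peaks, 12 had a poly(A) signal (52.2%, interval 33.0 to 70.8%), beside 47.1% of all other 3′ UTR peaks in the list. There were 11 that ended within 50 nt of an annotated 3′ end (47.8%, 29.2 to 67.0%), beside 54.7%. The 12 peaks with a signal were 12 to 351 tags high, with a median of 155.5 tags, and in the other genes the median was 56 tags. An A-rich stretch followed 8 of the 23 (34.8%, 18.8 to 55.1%), beside 31.9%, and 6 of these 8, all in ITGA2 and ITGA6, had no poly(A) signal.

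The genes differed in how many PABPC4 3′ UTR peaks they had. ITGA3, ITGA5 and ITGAV had a single 3′ UTR peak each, at the annotated end of the MANE Select transcript. The ITGA3 peak (318 tags, chr17:50090308-50090484) ended 3 nt past that end, the ITGA5 peak (175 tags, chr12:54395265-54395334) ended 4 nt before it and the ITGAV peak (136 tags, chr2:186680846-186680898) ended 3 nt before it. All 3 had AAUAAA. ITGB4, whose 3′ UTR is the shortest of the 9 at 266 nt, had its tallest peak (238 tags, chr17:75757728-75757817) 1 nt before the end, also with AAUAAA. A lower ITGB4 peak of 116 tags ended 99 nt before it with no signal, just upstream of the taller one.

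ITGB1 had its main 3′ UTR peak (286 tags, chr10:32900391-32900438) 73 nt before the MANE Select end and 21 nt past another annotated end, with AUUAAA. A lower peak of 12 tags (chr10:32900320-32900358) lay at the MANE Select end, 2 nt before it, also with AUUAAA and followed by an A-rich stretch. Of the 3′ UTR height of ITGB1, 96% was in the upstream peak. In ITGB5 the contrast was over a longer distance. The tallest peak (323 tags, chr3:124762953-124763027, AUUAAA) ended 1005 nt before the MANE Select end and 5 nt before another annotated end, and the peak at the MANE Select end (28 tags, chr3:124761952-124761998, AAUAAA) was much lower. Lower peaks of 29 tags with AAUAAA and 70 tags with no signal ended 1216 and 1311 nt before the MANE Select end. The upstream 323-tag peak held 71.8% of the 3′ UTR height of ITGB5. The higher peak thus had AUUAAA and the end peak AAUAAA in ITGB5, while in ITGB1 both had AUUAAA.

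ITGA2 and ITGA6 had 6 3′ UTR peaks each, spread along the UTR. In ITGA2, whose 3′ UTR of 4183 nt is the longest of the 9, the tallest peak (484 tags, chr5:53092522-53092630) ended 2149 nt before the MANE Select end, with no poly(A) signal and 10 A immediately downstream. The next (351 tags, chr5:53094396-53094543) ended 236 nt before the end with AUUAAA and also had an A-rich stretch downstream. The peak at the end itself (52 tags, chr5:53094738-53094776) ended 3 nt before it with AAUAAA. The other 3 were 115, 98 and 30 tags high, none had a signal, and the 115-tag and 30-tag peaks were followed by A-rich stretches. Leaving out the peaks before an A-rich stretch would leave 98 and 52 tags in ITGA2.

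In ITGA6 the tallest of 6 peaks (106 tags, chr2:172506165-172506195) ended 264 nt before the MANE Select end, with AAUAAA. The peak nearest the end (13 tags, chr2:172506435-172506454) was 5 nt before it with no signal. The others were 61, 52, 51 and 18 tags high, and the 61-tag, 52-tag and 18-tag peaks were followed by A-rich stretches. The 18-tag peak ended 10 nt before another annotated end. The tallest peak held 35.2% of the 3′ UTR height of ITGA6, the smallest share among the 8 genes, beside 42.8% in ITGA2 and 67.2% in ITGB4.

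**Figure D5:**
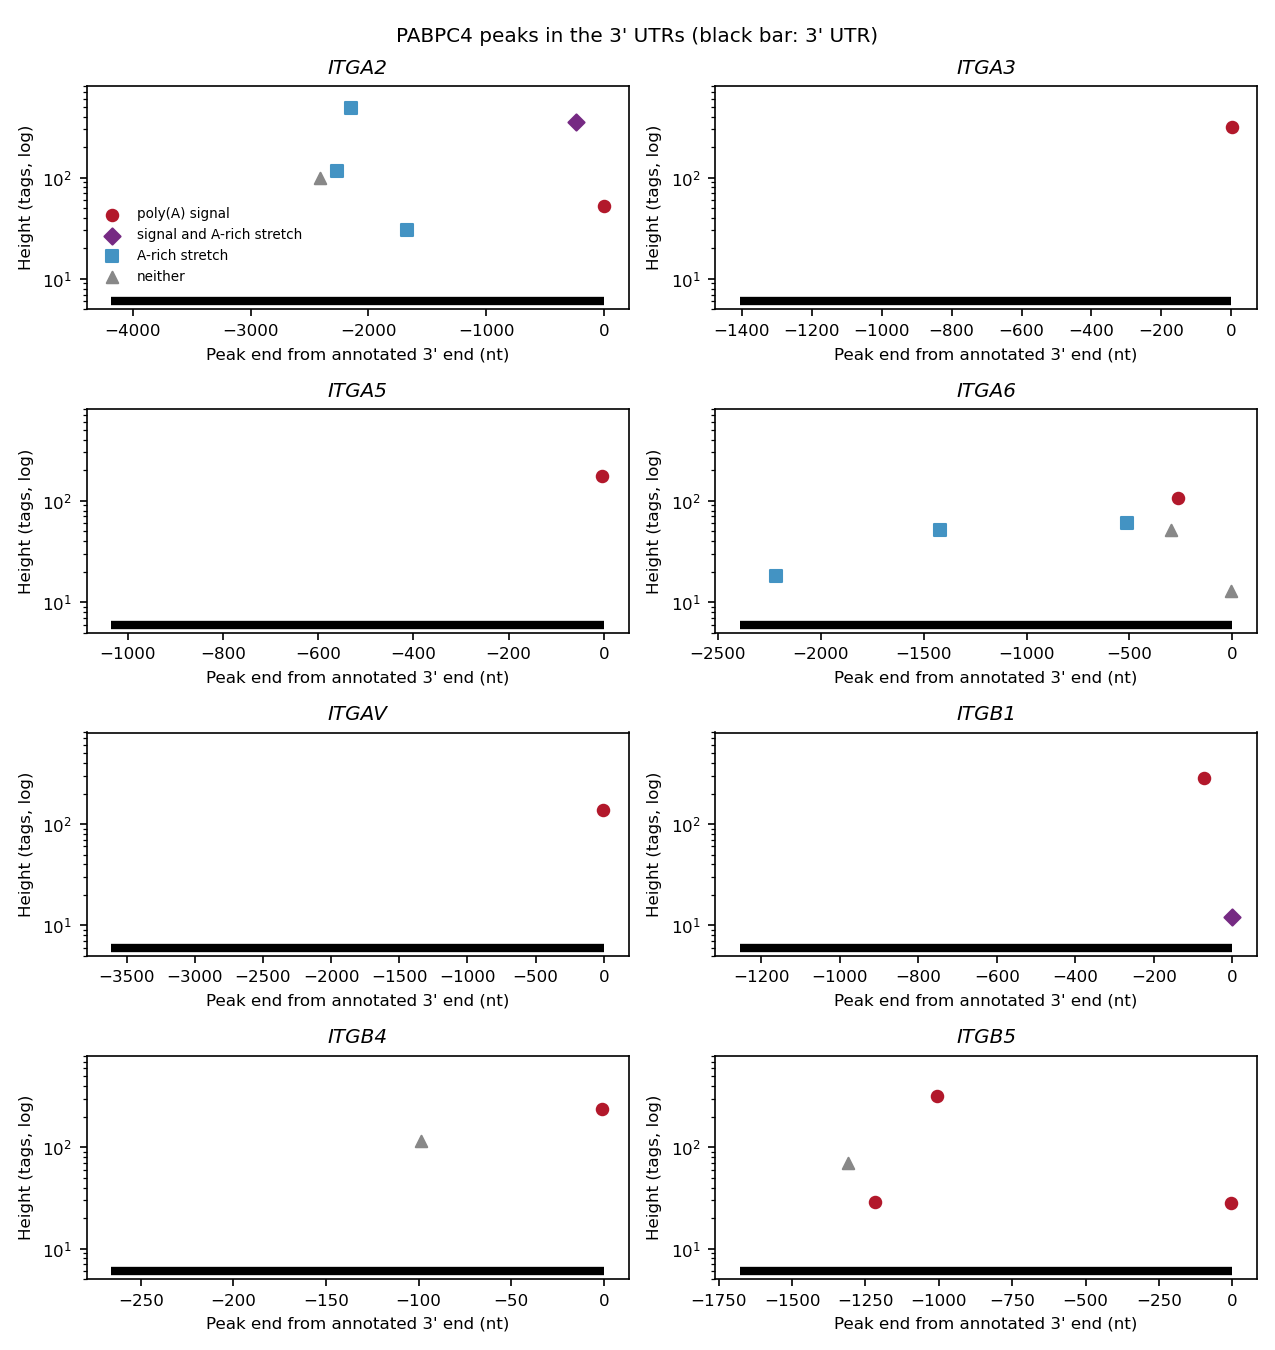
Height of each PABPC4 3′ UTR peak in tags (log axis) against the distance of its end from the 3′ end of the MANE Select transcript in nt, with the 3′ UTR as a black bar, for the 8 genes with such peaks. Markers show a poly(A) signal in the last 40 nt, an A-rich stretch within 50 nt downstream, both or neither. ITGA3, ITGA5 and ITGAV have a single peak at the end, ITGB1 and ITGB5 a taller peak upstream of the end, and ITGA2 and ITGA6 have 6 peaks each.

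ITGB3, a partner of ITGAV in the vitronectin receptor, had no peak of either protein within the gene. Its only listed PABPC4 peak (22 tags, chr17:47325099-47325146) ended 11403 nt past its 3′ end, in an intron of EFCAB13, and the deposited list carried it under both gene IDs. The values for ITGB3 therefore rest on a peak that cannot be assigned to it.

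PABPC4 peaks in coding exons were found in ITGB1 (3 peaks), ITGA2 (2) and ITGA6 (1), and were described after their values were seen. The tallest PABPC4 peak in any of the 9 genes was of this kind, 515 tags in exon 4 of ITGB1 (chr10:32929929-32930031), which is higher than the 286 tags at the main 3′ end of the same gene. It had no poly(A) signal in its last 40 nt and was followed by the A-rich stretch shown above, which itself spells AATAAA downstream of the peak. It ended 3 nt past the annotated 3′ end of an ITGB1 transcript. A neighbour in the same exon (chr10:32929842-32929889) and a peak in exon 3 (chr10:32932517-32932563) had 101 tags each, with no A-rich stretch downstream. The neighbour ended 43 nt and the exon 3 peak 4 nt past an annotated 3′ end of an ITGB1 transcript. Annotated ends were those of every GENCODE transcript, and ITGB1 has 36 transcripts with 21 ends. Whether the ends in these exons are sites of cleavage was not tested. The ITGA2 peaks, in exons 8 and 29, had 48 and 118 tags, and the ITGA6 peak, in exon 24, had 94 tags.

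As a share of all PABPC4 height, the 3′ UTR accounted for 70% in ITGA5, 62.6% in ITGA2, 54.5% in ITGB4, 53.1% in ITGB5, 35% in ITGA6, 32.5% in ITGAV, 29.1% in ITGA3 and 24.8% in ITGB1. The remainder in ITGB1 lay mainly in coding exons and in ITGA3 in introns.

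PABPC4 intron peaks were lower than the peaks with a signal, with a median of 51 tags (range 10 to 343) beside 35 tags for intron peaks of all other genes. No integrin intron peak had a poly(A) signal in its last 40 nt (0 of 47, which allows up to 6.38%), beside 5.97% of all other intron peaks, so the share could not be told from that of the list. An A-rich stretch followed 33 of 47 (70.2%, interval 56.0 to 81.3%), beside 71.2%. A sense Alu match was present at 29 of 47 (61.7%, 47.4 to 74.2%), beside 53.1%, and 44 of 47 had one or the other (93.6%), beside 87.5%. The integrin intron peaks were thus close to those of the rest of the list in both sequence features.

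By the MANE Select transcript, the tallest intron peak was in intron 23 of ITGA3 (343 tags, chr17:50083633-50083724), followed by 15 A at a sense Alu, and it was higher than the 318 tags at the 3′ end of that gene. ITGA3 had 6 peaks with 27 to 343 tags counted from intron 4 onwards, 5 of them in intron 23. The tallest intron peak was 108 tags in ITGB4 (intron 6), 100 in ITGA2 (intron 1), 97 in ITGB1 (intron 1), 87 in ITGA6 (intron 1), 77 in ITGB5 (intron 10), 75 in ITGA5 (intron 2) and 73 in ITGAV (intron 26). In these 7 genes it was below the tallest 3′ UTR peak.

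HNRNPC and PABPC4 peaks did not overlap in the integrin genes (0 of 22 HNRNPC peaks, which allows up to 13.6%). The distance from an HNRNPC peak to the nearest PABPC4 peak of the same gene ran from 563 nt in ITGA2 to 12489 nt in ITGB1, with a median of 2944 nt. Overlap and distance were not computed for the other HNRNPC peaks of the list. Neither can therefore be called particular to the integrin genes. The HNRNPC peak nearest an integrin 3′ end was the 11-tag peak in intron 15 of ITGB1, 2903 nt before the end of the MANE Select transcript and 2783 nt from the 286-tag PABPC4 peak.

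Other genes of integrin adhesion were counted by fixed lists, beside the same shares of all protein-coding genes: 19% with an HNRNPC peak, 1.98% with one in the 3′ UTR, 59.2% with a PABPC4 peak and 48.8% with one in the 3′ UTR. The lists were not tested against these shares. Of 17 other integrin subunits, 0 had an HNRNPC peak, 9 had a PABPC4 peak and 4 had one in the 3′ UTR, the tallest in ITGAE (122 tags), the αE subunit that binds E-cadherin. Of 19 matrix ligands, 6 had an HNRNPC peak and 16 a PABPC4 3′ UTR peak, the tallest in THBS1 (802 tags), which encodes thrombospondin 1. Of 18 cytoplasmic activators and adaptors, 9 and 15 did, and the tallest was in FLNA (1572 tags), an actin crosslinker that binds β tails.

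Of 11 kinases and signalling adaptors, 7 had an HNRNPC peak and 9 a PABPC4 3′ UTR peak, beside 19% and 48.8% of protein-coding genes. The tallest of the latter was in BCAR1 (270 tags), the p130Cas scaffold. CRKL, an adaptor that binds that scaffold, had an HNRNPC peak of 9 tags in its 3′ UTR. Of 8 tetraspanins and hemidesmosome partners, 2 had an HNRNPC peak and all 8 a PABPC4 3′ UTR peak, the tallest in CD63 (2528 tags), a tetraspanin. PLEC, the plectin gene whose product binds ITGB4 in hemidesmosomes, had 2 HNRNPC 3′ UTR peaks, the taller with 19 tags. CRKL and PLEC were the only genes in the 5 lists with an HNRNPC 3′ UTR peak, which 1.98% of protein-coding genes had.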

How the data were processed

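CLIP tags were mapped from 4 MDA-MB-231 samples. Per the labels and the study's methods, the authors extracted molecular identifiers with UMI-tools, trimmed with cutadapt, aligned to hg38 with BWA 0.7.17, removed PCR duplicates and used the CLIP Tool Kit, which seeks valleys between peaks, for the HNRNPC list. The processing of PABPC4 tags was not given separately in the sources used here. The labels name irCLIP for HNRNPC whereas the name of the deposited list gives HITS-CLIP, and which one made it was not settled. The deposited signal of a peak is its height in pooled unique tags, not scaled to depth, with the authors' p-value, expected height and gene ID. The tags of both samples were pooled, so library depth is unknown here.

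Each position was counted once, from 10388 entries for HNRNPC and 69778 for PABPC4, with its lowest p-value. Gene IDs were matched to RefSeq symbols for 4090 of 4098 IDs (HNRNPC) and 13155 of 13189 (PABPC4). Against the hg38 chromosome lengths, 0 peaks ran past an end. The peak's centre decided its GENCODE 44 feature, same strand only, in the order 3′ UTR, coding sequence, 5′ UTR, non-coding exon and intron, with UTRs taken from transcripts of type protein-coding. Poly(A) signals were the hexamers AAUAAA and AUUAAA, sought in the last 40 nt of a peak. Stretches were called A-rich with 6 consecutive A, or 7 A among 10 nt, inside the 50 nt downstream. Motifs were read in the sense of the RNA only. Alu repeats were found with blastn 2.17.0 against RN7SL1 (299 nt) with an E-value limit of 1e-05 and 100 nt added on each side. Intervals are 95% Wilson intervals (scipy 1.17.1), and the limit for a count of 0 is 3 counts. No test was made. The functions that place peaks and find motifs were tested on simulated data.

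All 9 genes were named. Named peaks were the tallest PABPC4 3′ UTR peak, the one ending nearest an annotated 3′ end, the tallest PABPC4 intron peak and up to 3 tallest HNRNPC peaks of each gene, and of each pathway list the gene with the tallest PABPC4 3′ UTR peak and those with an HNRNPC 3′ UTR peak. Other peaks were named after their values were seen. The genes, lists and rules were chosen with earlier results of these data known. Other p-value limits, heights, transcripts, windows and motifs were tried as alternatives.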

Additional observations from a re-analysis of the deposited data

How the results depend on the processing

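Each of 12 results was recomputed under its alternatives, 49 values in all, of which 44 stayed within 1.5 times the count or inside the interval of the share. All 81 PABPC4 peaks had an authors' p-value of at most 0.001, so that limit could not change a PABPC4 value. Wide intervals also kept large moves inside, as when the poly(A) signal share went from 52.2% to 34.8% with AAUAAA only. HNRNPC peaks in the integrin genes fell from 22 to 14 with the authors' p-value at most 0.001, and to 11 at or above the median height of the list. The genes with an HNRNPC peak then numbered 5 and 3, the latter ITGA3, ITGA6 and ITGB1. The share of HNRNPC peaks in introns rose from 90.9% to 100% on MANE Select transcripts, an alternative chosen after seeing the data, as were UTRs from every transcript with a CDS, MANE Select 3′ ends leaving out the peak shared with EFCAB13 and the alternatives for the first-intron share, which was 64.3% with the strict p-value and 63.6% for the taller peaks. The share of 3′ UTR PABPC4 peaks followed by an A-rich stretch fell from 34.8% to 17.4% when only the first 20 nt downstream were read, which is a narrower window by construction. UUUUU was in 28.6% of the HNRNPC peaks with the strict p-value and in 54.5% with the 50 nt upstream added.

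No paired analysis was possible because both lists hold pooled tags only, and for the same reason no sample could be left out. The small number of HNRNPC peaks, 22, limits every share drawn from them.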
